A study of Mus musculus with 2 samples.

Results

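The loci of 6 genes of the fat cell programme (Pparg, Adipoq, Fabp4, Plin1, Lpl and Lep) and of 3 genes for CCAAT/enhancer-binding proteins (Cebpa, Cebpb and Cebpd) were examined for occupancy by Klf4 in the mouse mesentery. A peak was counted for a gene when its midpoint fell in a fixed window of mm9 set around that gene, and 6 peaks of 7313 met this rule. All 3 C/EBP windows held a peak, where 7.2% (30 kb) and 8.26% (35 kb) of stretches of their lengths did over the whole list. Of the 6 adipocyte windows, those of Plin1 (10.2% of 45 kb stretches) and Lpl (12.1% of 55 kb stretches) held a peak. The windows of Fabp4 (8.26%), Adipoq and Lep (10.2% each) and Pparg (27.7% of 170 kb stretches) held none, as did most stretches of their lengths. The highest score among the 6 peaks was at Cebpd and the lowest at Plin1.

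Klf4 was precipitated from chromatin of mesenteric arcades, the small-vessel beds of the gut, of chow-fed C57BL/6 mice, in 1 library from mice with Klf4 deleted in smooth muscle cells (genotype eYFP+/+ Klf4delta/delta) and 1 library from mice with intact Klf4 (eYFP+/+ Klf4WT/WT). Both carry alleles of eYFP, a fluorescent protein gene used to mark cells. The labels name neither the driver of the deletion nor the age, number or pooling of the animals. One peak list covers the series and names no genotype, so the genotypes were not compared, and each value below is a single measurement without replicate error. The material was a stromal vascular fraction, the part of a fat-bearing tissue that is conventionally freed of floating mature fat cells and keeps vessel, immune and progenitor cells. The labels describe it as a mixture that includes smooth muscle cells and macrophages, so no peak is tied to a cell type, and adipocyte content was not measured.

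Klf4 is a zinc-finger transcription factor that binds GC-rich and CACCC-type sequences. In cultured mouse preadipocytes, C/EBP-beta and C/EBP-delta appear early in differentiation and induce Pparg and Cebpa, whose products then keep each other and the genes of the mature fat cell active. Klf4 is known in such cells as an early factor that binds the Cebpb promoter. This is background knowledge on cultured cells, which the peak list of a mixed stromal vascular fraction does not test.

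Promoter sequences are shown for 2 C/EBP genes whose windows held peaks, for Plin1, whose window held the lowest-scoring peak, and for Adipoq, whose window held none. They are RefSeq sequences of GRCm38.p6, from 250 bases before to 50 after the annotated start, and the table held 6 of the 9 members (without Fabp4, Lpl and Cebpd). The peaks are in mm9 and no position was moved between the builds, so whether a peak covers a promoter shown here was not determined. Capitals mark CACCC or GGGCGGG on either strand (GGGTG or CCCGCCC when read on the other strand).
Cebpb promoter, chr2:167688665-167688964, plus strand: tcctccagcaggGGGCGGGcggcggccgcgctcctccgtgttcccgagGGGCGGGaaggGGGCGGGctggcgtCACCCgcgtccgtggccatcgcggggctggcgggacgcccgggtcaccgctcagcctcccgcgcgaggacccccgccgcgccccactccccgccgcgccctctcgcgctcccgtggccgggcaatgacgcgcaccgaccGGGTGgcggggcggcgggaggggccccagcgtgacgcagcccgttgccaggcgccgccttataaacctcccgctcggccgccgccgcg
Cebpa promoter, chr7:35119043-35119342, plus strand: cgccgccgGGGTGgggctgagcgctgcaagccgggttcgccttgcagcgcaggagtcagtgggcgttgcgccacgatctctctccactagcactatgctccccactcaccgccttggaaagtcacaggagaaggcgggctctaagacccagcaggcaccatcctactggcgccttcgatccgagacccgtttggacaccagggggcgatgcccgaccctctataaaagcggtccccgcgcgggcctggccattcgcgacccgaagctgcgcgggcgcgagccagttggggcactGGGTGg
Plin1 promoter, chr7:79732727-79733026, minus strand: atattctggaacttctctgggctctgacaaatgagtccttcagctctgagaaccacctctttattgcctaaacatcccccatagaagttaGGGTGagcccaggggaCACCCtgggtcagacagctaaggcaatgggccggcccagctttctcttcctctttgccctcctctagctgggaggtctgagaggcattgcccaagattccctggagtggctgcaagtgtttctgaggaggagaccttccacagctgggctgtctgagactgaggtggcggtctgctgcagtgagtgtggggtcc
Adipoq promoter, chr16:23146286-23146585, plus strand: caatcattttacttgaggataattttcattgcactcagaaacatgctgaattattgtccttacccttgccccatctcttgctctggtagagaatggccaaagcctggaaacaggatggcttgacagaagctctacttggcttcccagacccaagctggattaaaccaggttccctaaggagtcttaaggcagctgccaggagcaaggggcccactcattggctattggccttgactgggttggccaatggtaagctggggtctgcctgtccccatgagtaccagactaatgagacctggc

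The Cebpb promoter held 2 CACCC and 3 GGGCGGG matches, and the Cebpa promoter held 2 CACCC matches and no GGGCGGG. The Plin1 promoter held 2 CACCC matches, and that of Adipoq held neither sequence. Other genes without a peak in the window did hold matches. The Lep promoter held 1 CACCC and 1 GGGCGGG. The 3 annotated Pparg promoters held 4, 1 and 0 CACCC and 0, 1 and 0 GGGCGGG in that order. Of the 8 annotated promoters of the 6 matched members, 6 held CACCC, against 57.5% of 32851 promoters of the same length. GGGCGGG was present in 3 of the 8 promoters, against 25.6% of all. The longer sequence CCACACCC, which contains CACCC, was in none of the 8 and in 3.56% of all. A match describes letters in this stretch and is not a binding site.

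The promoters varied in base composition. The Cebpb promoter had 80.7% G and C and 50 CpG dinucleotides, and 99.1% of all promoters had fewer CpGs. The Cebpa promoter had 67.3% G and C and 29 CpGs. The Plin1 promoter had 55.7% G and C and 2 CpGs, and the Adipoq promoter 50% and 0, beside medians of 52.7% and 7 over all promoters. Among genes without a peak in the window, the 3 annotated Pparg promoters had 80.3%, 62.7% and 40.3% G and C, with 44, 13 and 2 CpGs and 4, 1 and 0 CACCC matches in that order. The Lep promoter had 66.0% G and C and 19 CpGs, where the upper quartile over all promoters was 20 CpGs. Of 20 further genes of fat cell differentiation and lipid metabolism, 16 had promoters in the table, and 18 of their 24 promoters held CACCC, against the 57.5% of all promoters. GGGCGGG was in 9 of the 24, against 25.6% of all. CCACACCC was found for 2 of the 16 genes, and 3.56% of all promoters held it. That count is by gene and that share by promoter, so they are not directly comparable.

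Among the C/EBP genes, Cebpd, which encodes C/EBP-delta, carried the highest-scoring peak. In its window (15870000 to 15900000 on chromosome 16), a single peak lay at 15887406 to 15889036, was 1631 bp wide and had a score of 319.34. The score is the authors' peak-caller value and ranks peaks within this list only. The Cebpd peak ranked 212 of 7313, with 97.1% of peaks scoring lower, and 92.4% of peaks were narrower. Among the 732 peaks of the highest score decile (228.13 to 1023.8), whose median width was 1436 bp, 65.7% were narrower than the Cebpd peak. A lower-scoring peak (93.09) lay just outside the window, with its midpoint 6.72 kb below the lower edge, on chromosome 16 at 15862728 to 15863837.

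Cebpb, which encodes C/EBP-beta, was the only gene of the 9 with 2 peaks in its window (167495000 to 167530000 on chromosome 2). The wider lay on chromosome 2 at 167515481 to 167517165 (1685 bp, score 179.01, rank 1399) and scored above 80.9% of the list. The other lay at 167514847 to 167515352 (506 bp, score 65.33, rank 6886), and only 426 peaks of the list scored lower. The pair was 128 bp apart, and 3.12% of gaps between neighbouring peaks of the list were shorter. Joined, as neighbours under 1 kb apart were in an alternative count, the pair formed a single region of 2319 bp. A further peak (1311 bp, score 111.54) lay at 167485745 to 167487055, outside the window by 8.60 kb, so that 3 midpoints fell within 50 kb at this locus. The close pair makes up 2 of these 3. At Cebpd 2 midpoints fell within 50 kb, and the share of such stretches over the list was not measured.

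Cebpa, which encodes C/EBP-alpha, had 1 peak of modest score. Within a window of 35890000 to 35920000 on chromosome 7, it lay at 35904973 to 35905749, with a width of 777 bp and a score of 91.15, and 35.5% of the list scored lower. Its width was close to the median of 805 bp among the 731 peaks of its score decile (87.1 to 96.78). The nearest other peak, on chromosome 7 at 35840427 to 35841553, scored higher (176.64) and lay 49.0 kb outside the window. All 4 C/EBP peaks had midpoints between 0.36 and 3.82 kb above the centres of their windows. The centre of a window is not a gene start, and distances to gene starts were not measured because no mm9 annotation was used.

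In the adipocyte windows, Lpl and Plin1 held 1 peak each, both near the lower end of the score range. Lpl, which encodes lipoprotein lipase, the enzyme that releases fatty acids from circulating lipoproteins, had a peak on chromosome 8 at 71404475 to 71405170 (696 bp, score 70.99, rank 6356), in a window of 71390000 to 71445000. Of the list, 13.0% scored lower. Plin1, which encodes perilipin 1, the protein coat of the fat cell's lipid droplet, had a peak on chromosome 7 at 86887417 to 86888342 (926 bp, score 62.07, rank 7139), in a window of 86850000 to 86895000. Only 173 peaks scored lower, and the lowest score of the list was 60.01. For its score the Plin1 peak was wide, since 81.6% of the 732 peaks in its score decile were narrower and their median was 624 bp. Measured from the window centre, the midpoint lay at -12.7 kb for Lpl and at 15.4 kb for Plin1, and the Plin1 midpoint was 7.12 kb from the window's upper edge. Kif7 and Pex11a are protein-coding neighbours of Plin1 in RefSeq's gene order on GRCm38.p6. Neither peak was assigned to a gene beyond lying in its window.

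**Figure D1:**
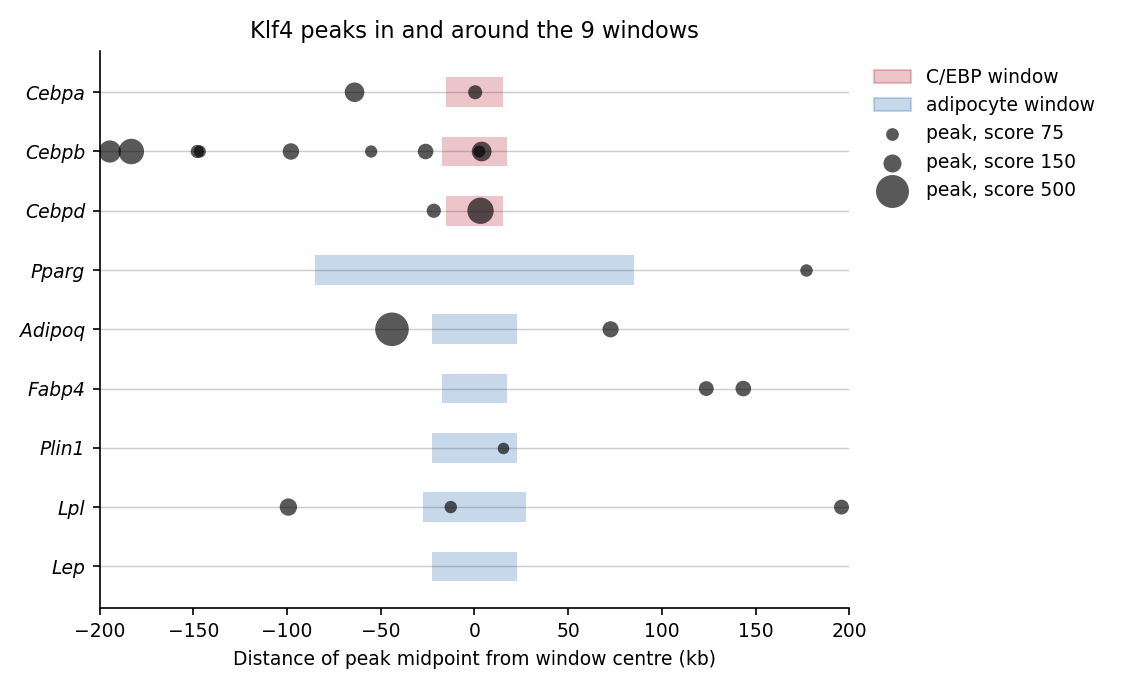
Positions of Klf4 peaks within 200 kb of the centre of each window, with distance in kb on the horizontal axis and 1 row per gene. Shaded bars are the windows (C/EBP red, adipocyte blue) and each dot is a peak whose area is proportional to the authors' score. The 3 C/EBP windows hold peaks near their centres, the windows of Lpl and Plin1 hold small dots away from the centre, and the row of Lep is empty. The centre of a window is not a gene start, so these positions do not show how far a peak lies from a gene start.

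No peak fell in the windows of the other 4 adipocyte genes. Pparg encodes the nuclear receptor that directs fat cell differentiation. Its window on chromosome 6 (115290000 to 115460000), the longest at 170 kb, lay in a stretch of 564.0 kb without a peak, and 85.4% of 7278 gaps between neighbours in the list were shorter. The nearest peak, 92.1 kb above the window at 115551947 to 115552343, was 397 bp wide with a score of 71.93. Lep encodes leptin, the satiety hormone of fat tissue. Its window (28995000 to 29040000 on chromosome 6) lay in the longest peak-free stretch of the 4, at 791.3 kb, which 89.0% of gaps did not reach. The nearest peak was 183.2 kb above the window (score 90.8). A gap around an empty window is at least as long as that window, and long gaps cover more sequence than short ones. The shares of shorter gaps therefore do not show that these stretches were unusual for a locus, which was not tested.

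Fabp4 encodes the fatty acid carrier protein of fat cells and macrophages. Its window (10190000 to 10225000 on chromosome 3) lay in a peak-free stretch of 497.3 kb, and the nearest peak, with a score of 101.97, was 106.2 kb away. Adipoq, which encodes the fat cell hormone adiponectin, differed from the other 3 in having a high-scoring peak close by. Its window (23130000 to 23175000 on chromosome 16) lay in a gap of 115.5 kb, little longer than the list's median gap of 94.1 kb. The peak below it, at 23107564 to 23109352 (1789 bp, score 519.78), ranked 30 of 7313, above every peak inside the 9 windows, and its midpoint lay 21.5 kb outside the window. In RefSeq's gene order on GRCm38.p6, the protein-coding neighbours of Adipoq on its lower side were Rfc4, Eif4a2 and Kng1. The peak was not assigned to any of these genes.

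The order of the loci by their highest score was Cebpd (319.34), Cebpb (179.01), Cebpa (91.15), Lpl (70.99) and Plin1 (62.07), so each C/EBP locus stood above both adipocyte loci. Without replicate lists, no spread is attached to this order. The lower-scoring Cebpb peak (65.33) lay between those of Lpl and Plin1. The median score was 135.08 over the 4 C/EBP peaks and 66.53 over the 2 adipocyte peaks, beside 112.02 over the list. Of the 6 peaks, 2 scored above that median, at Cebpd and Cebpb. The median width was 1204 bp over the C/EBP peaks and 811 bp over the adipocyte peaks, beside 913 bp over the list. A score of at least 100 was reached by 2 of the 6 peaks and by 58.1% of the list.

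**Figure D2:**
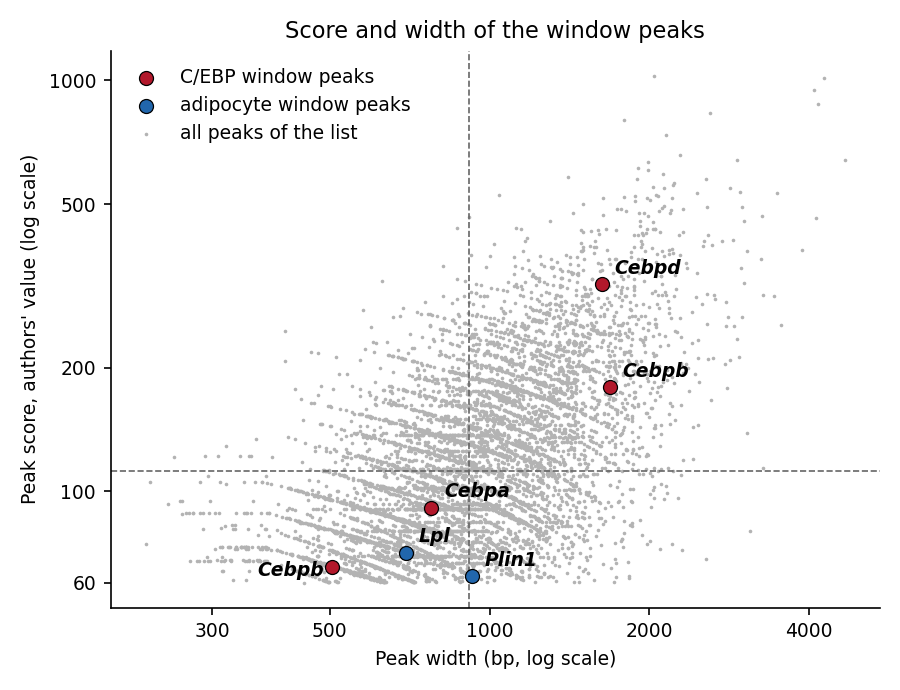
Score (authors' value, log scale) against width (bp, log scale) for the 4 C/EBP peaks, the 2 adipocyte peaks and all 7313 peaks, with dashed lines at the list's medians of 112.02 and 913 bp. The Cebpd peak and the wider Cebpb peak lie above both medians, and the other 4 lie below the median score.

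Windows of these lengths usually held no peak elsewhere in the list. The background was taken as the share of end-to-end tiles of the same length, over the span of peaks on 20 chromosomes, that held at least 1 midpoint. It was 7.2% at the 30 kb of Cebpa and Cebpd and 8.26% at the 35 kb of Cebpb and Fabp4, and 1.48% of 35 kb tiles held at least 2 midpoints, as the Cebpb window did. It was 10.2% at the 45 kb of Adipoq, Plin1 and Lep, 12.1% at the 55 kb of Lpl and 27.7% at the 170 kb of Pparg. Set beside these shares, 3 of 3 C/EBP windows and 2 of 6 adipocyte windows held a peak. Tiles cover sequence with and without genes, whereas every window was set around a gene, so the background is that of the genome and not of genes, and a difference from it was not tested.

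Per length of sequence, the C/EBP windows held 42.1 peaks per Mb (4 peaks in 95 kb, exact Poisson 95% interval 11.5 to 108). The adipocyte windows held 5.06 per Mb (2 peaks in 395 kb, 0.613 to 18.3), and 8.89 per Mb (1.08 to 32.1) without the long Pparg window. Over the span of all placed chromosomes the list held 2.86 per Mb (2.80 to 2.93). All 9 windows together held 12.2 per Mb (4.49 to 26.7). The intervals cover counting error only, and the close pair at Cebpb counts as 2 of the 4 C/EBP peaks. The windows were set around genes and chosen with earlier results known, so these rates are a description, and no difference between them was tested.

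**Figure D3:**
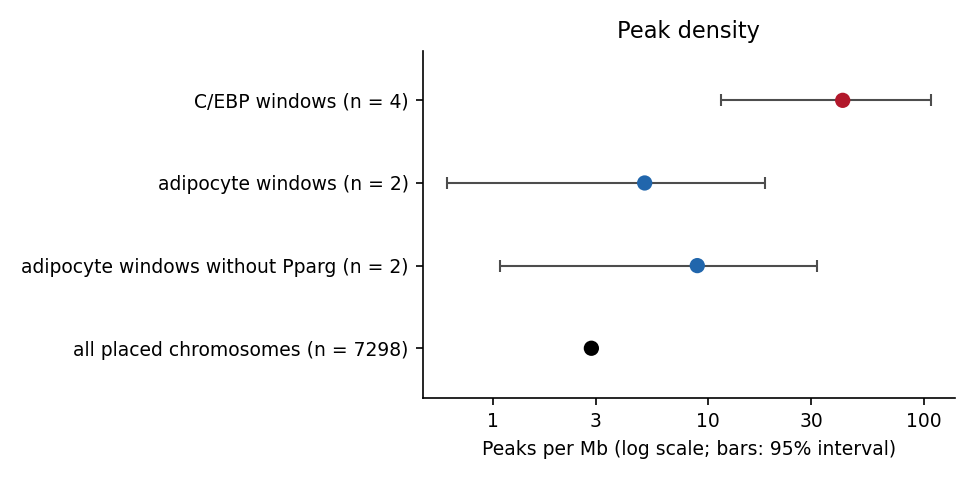
Peaks per Mb (log scale) in the C/EBP windows, the adipocyte windows, the adipocyte windows without Pparg and all placed chromosomes, with exact Poisson 95% intervals as bars. The points stand at 42.1 for the C/EBP windows, at 5.06 and 8.89 for the adipocyte windows and at 2.86 for the list, and the bars of the windows are wide because they rest on 4 and 2 peaks.

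The surroundings of the loci held peaks whether or not the window did. Within 500 kb on either side, outside the window, there were 10 peaks at Cebpb (exact Poisson 95% interval 4.80 to 18.4), 6 at Cebpa (2.20 to 13.1) and 6 at Cebpd (2.20 to 13.1). Among the adipocyte genes there were 8 at Plin1 (3.45 to 15.8), 7 at Pparg (2.81 to 14.4), 4 each at Adipoq and Fabp4 (both 1.09 to 10.2) and 3 each at Lpl and Lep (both 0.619 to 8.77). These flanks add up to 1 Mb per locus, and the chromosomes concerned held between 2.33 and 3.55 peaks per Mb. Chromosome 2, which carries Cebpb, held 3.37 per Mb, and chromosome 6, which carries Pparg and Lep, held 2.39 per Mb. The flanks of Pparg thus held 7 peaks in 1 Mb, while its own window, shorter at 170 kb, held none. Only 27.7% of 170 kb tiles over the list held a peak, so these counts do not show a lack of peaks at Pparg. With the depth of the libraries not given in the sources used here, a window without a peak shows that none was listed there, not that Klf4 was absent.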

How the data were processed

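Chromatin of the stromal vascular fraction was cross-linked, sheared and pulled down with an antibody to Klf4, per the labels' protocols. The submitters' processing notes name Bowtie and SAMtools as tools and mm9 as the build. The deposited list gives a position and a score per peak, and its peak names, per the file's own entries, come from MACS. Not given in the sources used here are the caller's version and threshold, its control library and the read depth.

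Positions were made 1-based by adding 1 to each start. A peak belonged to a window when its midpoint lay in it, and all peaks in the 9 windows are named. Peak counts carry exact Poisson 95% intervals. The unmatched build of the reference table (GRCm38.p6) was used for promoter sequences and gene order only. Genes, windows and lists were chosen with earlier results of these data known, so no test was made over the members. Base composition was added after the data were seen. The counting steps were tested on simulated data. Computation used scipy 1.17.1 and pandas 2.3.3 under Python 3.11.15, and figures used matplotlib 3.10.9.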

Additional observations from a re-analysis of the deposited data

How the results depend on the processing

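Whether any overlap or the whole peak placed it in a window, each of the 9 windows kept its number of peaks. Of the 6 peaks, 2 remained with the upper 50% of scores and the same number with the upper 25%, in 2 windows (1 peak each at Cebpb and Cebpd, 0 at Cebpa, Lpl and Plin1). The rate in the 9 windows, 12.2 per Mb with all peaks, was 4.08 with either share of scores, 20.4 in the central 50% of each window and 7.91 in the widened windows. The list's 2.86 per Mb is for peaks of all scores and falls under the same score cuts, so it is not a match for the 4.08. Widening each window by 50 kb on both sides gave 11 peaks, with 4 at Cebpb, 2 each at Cebpa and Cebpd and 1 at Adipoq. The central 50% of each window left 0 at Plin1. Merging peaks under 1 kb apart left 1 region at Cebpb. With the central 30 kb of each window, chosen after seeing the data, 4 of 9 windows held a peak, Plin1 being the one lost. These were 3 of 3 C/EBP windows and 1 of 6 adipocyte windows, beside 7.2% of 30 kb tiles over the list. Shifting the tiles or keeping to the members' chromosomes left the background within 1.5 times. Of the 6 members with a promoter entry, 5 matched CACCC, 3 GGGCGGG and 0 CCACACCC. Over all promoters the shares were 57.5%, 25.6% and 3.56%, counted by promoter and not by gene. No paired analysis was possible because a single peak list holds no values by library. The comparison of genotypes was not run, because the list names none. Peaks near the lowest score would be lost under a stricter threshold, and the missing depth limits what an empty window shows.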
